A study of Mus musculus with 50 samples.

Results

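The genes described here encode the machinery of oxidative phosphorylation in hippocampal microglia, the resident macrophages of the brain. Members were chosen by symbol: names that start with Nduf, Uqcr, Atp5 or Cox4 to Cox8, the 4 Sdh genes, Cyc1, Cycs, and the mitochondrially encoded mt-Nd, mt-Co, mt-Atp and mt-Cytb genes, with processed copies left out. The rule found 115 of the 53700 genes in the count tables, of which 102 are nuclear and 13 lie on the mitochondrial genome. Of these, 91 nuclear and 8 mitochondrially encoded members passed the filter on low counts and were tested, within 16696 genes tested in all.

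The libraries came from 50 male C57BL/6J mice, for which no allele or transgene is named. Dams and pups had either standard housing (CTR) or limited bedding and nesting material from postnatal day (P) 2 to 9 (ELS, early-life stress). One cohort was collected at P9 and gave 12 CTR mice (P9-CTR) and 13 ELS mice (P9-ELS). Another was collected at P200, 3 h after an intraperitoneal injection of PBS or of 1 mg/kg lipopolysaccharide (LPS), a bacterial cell wall component that sets off an inflammatory response. PBS was given to 7 CTR mice (P200-CTR-PBS) and 6 ELS mice (P200-ELS-PBS), and LPS to 7 CTR mice (P200-CTR-LPS) and 5 ELS mice (P200-ELS-LPS). Microglia were sorted by flow cytometry as CD11b+ and CD45 intermediate cells, and poly-A selected RNA was sequenced. Myelin was removed on Percoll from the adult brains and not at P9, and only the adults were injected. Age, cohort, isolation and injection therefore cannot be told apart in any comparison of P200 with P9. Mice are named by the number in their labels, in which the part before the point is taken here as the nest and the part after it as the mouse. The p-values treat nestmates as separate mice.

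Oxidative phosphorylation takes place at the inner mitochondrial membrane. Complex I and complex II take electrons from NADH and succinate, complex III passes them to cytochrome c, complex IV hands them to oxygen, and complex V, the ATP synthase, uses the proton gradient so built to make ATP. The subunits of all complexes but complex II come from both genomes, so a cell has to match nuclear and mitochondrial transcription. Microglia are known to move from oxidative metabolism towards glycolysis when activated by bacterial products.

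Whether a mitochondrially encoded gene had counts went with a stretch of chromosome 1. Only reads that map to a single place were counted, and in GRCm39, the build of the count tables, chr1:24650616-24655265 on the minus strand carries a copy of bases 6394 to 11042 of the mitochondrial genome. Of the 4650 aligned bases 4648 were identical. The 5 members that lie wholly inside the copied stretch without any difference, mt-Co2, mt-Atp8, mt-Atp6, mt-Co3 and mt-Nd4l, had 32, 4, 61, 84 and 68 counts summed over the 50 mice, and none was tested. mt-Nd3, a subunit of complex I (chrM:9459-9806), also lies wholly inside but holds the substitution T9461C, with positions counted on the mitochondrial genome and the mitochondrial base first. It had 2142 counts. The other difference is 1 base inserted at position 9821, past the end of mt-Nd3, and which of them the counted reads reached was not tested. The pair of sequences is shown because it holds the difference inside mt-Nd3. The capital marks the base that differs, in the mitochondrial genome at chrM:9431-9491 and in the copy at chr1:24652168-24652228 on the minus strand.
mitochondrial genome: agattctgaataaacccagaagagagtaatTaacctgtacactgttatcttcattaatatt
nuclear copy: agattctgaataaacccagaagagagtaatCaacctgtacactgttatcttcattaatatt

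Of the other members, mt-Co1 (chrM:5328-6872) lay inside the copy for 31.0% of its length and mt-Nd4 (chrM:10167-11544) for 63.6%. mt-Nd1 (chrM:2751-3707), mt-Nd2 (chrM:3914-4951), mt-Nd5 (chrM:11742-13565), mt-Nd6 (chrM:13552-14070) and mt-Cytb (chrM:14145-15288) lay outside it. Counts per base, summed over all mice, ranged from 0.020 to 0.229 for the 5 untested members. They were 6.16 for mt-Nd3 and between 207 and 2435 for the other tested members. A read that lies wholly in identical sequence has no single map position, so the counts of the untested genes are read here as no measure of their transcripts, and a level of mt-Nd3 as one of the reads that reach a difference from the copy. mt-Nd6 lies on the opposite strand and overlaps the end of mt-Nd5. The library kit does not mark strand, so reads from that overlap cannot be told apart.

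**Figure D1:**
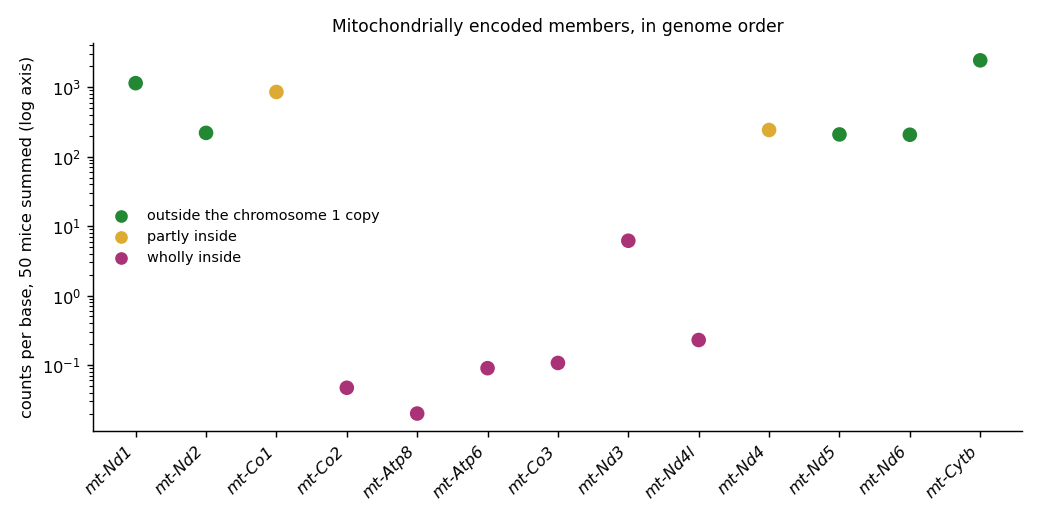
Counts per base of each mitochondrially encoded member, summed over 50 mice, on a log axis (y), with the genes in genome order (x). Colours separate genes outside, partly inside and wholly inside the copy on chromosome 1. The 6 genes wholly inside lie between 0.020 and 6.16, and the 7 others between 207 and 2435.

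Total counts per library ranged from 5152838 to 42231258, and between 12482 and 21100 genes had a count. The 3 libraries with the fewest detected genes stood apart: P200-CTR-PBS mouse 1.1 (12854 genes), and in P9-ELS mouse 2 (15731) and mouse 3 (12482 genes and the lowest total) of nest 19. All 13 microglia markers were detected in each group. Summed over the list, their median level was 61720 CPM (counts relative to the library total, after scaling by the trimmed mean of M values) in P9-CTR and 94460 CPM in P200-CTR-PBS. A list of 9 neuronal marker genes summed to a median of 152 CPM at P9-CTR (range 73.8 to 199) and 6.95 CPM in P200-CTR-PBS (2.54 to 11.9), and 4 oligodendrocyte precursor markers to 8.61 and 0.05 CPM. Their part in the age results was not tested. In bulk libraries, fewer cells of one type and less RNA per cell cannot be told apart.

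Compared per kilobase of transcript, the most abundant members were mitochondrially encoded. In P9-CTR the median level was 2623 CPM per kb for mt-Cytb, the cytochrome b of complex III, 1224 for mt-Nd1 and 806 for mt-Co1, the catalytic subunit of complex IV. The highest nuclear member was Cox4i1 (chr8:121391505-121400950), the common isoform of complex IV subunit 4, at 638 CPM per kb. Cox6a1, another complex IV subunit, followed at 377, Atp5b, the catalytic beta subunit of the ATP synthase (chr10:127919132-127926261), at 313 and the complex III core subunit Uqcrc1 at 262. The same 7 genes led in P200-CTR-PBS, where mt-Cytb stood at 1693, Cox4i1 at 355, Cox6a1 at 181, Uqcrc1 at 180 and Atp5b at 174 CPM per kb. Together the nuclear members took 0.999% ± 0.098 of the counts in P9-CTR (SD, n = 12) and 0.681% ± 0.116 in P200-CTR-PBS (n = 7). In the second group the share was 0.640% ± 0.042 without mouse 1.1. The mitochondrially encoded members took 0.739% ± 0.136 and 0.426% ± 0.054. These shares are lower limits, because reads wholly inside the copy on chromosome 1 were not counted and 5 members were almost without counts. Levels per kb were divided by the full length, of which 31.0% in mt-Co1 and 63.6% in mt-Nd4 lay inside the copy.

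Members on both genomes were lower in adult microglia than at P9, in CTR and in ELS mice. In CTR, 46 of the 91 nuclear members were lower and 4 higher at P200 in PBS-injected mice (edgeR quasi-likelihood test, adjusted p under 0.05), where 26.6% of all genes tested were lower and 17.4% higher. The median log2 fold change of the nuclear members was -0.44, and that of all genes tested was -0.09. In ELS, 78 were called and 77 of them were lower, where 42.2% of all genes tested were called in either direction and 25.0% were lower, with a median of -0.91 and a median of all genes of -0.01. All 46 members that were lower in CTR were also lower in ELS, which is 100% of the first list and 59.7% of the second. As 84.6% of the nuclear members were lower in ELS, a large overlap is a matter of course, and it was not counted over all genes tested. These comparisons share no mice, but they come from the same fit, with the same filter and a shared estimate of spread. Without the 3 libraries with the fewest detected genes, the counts were 68 lower and 4 higher in CTR (median -0.55) and 74 lower and 3 higher in ELS (median -0.73). Over all genes tested, the calls went from 4445 lower and 2911 higher to 4841 and 3498 in CTR, and from 4182 and 2863 to 4579 and 3467 in ELS. The counts of nuclear members in the 2 conditions were thus closer without those libraries.

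**Figure D2:**
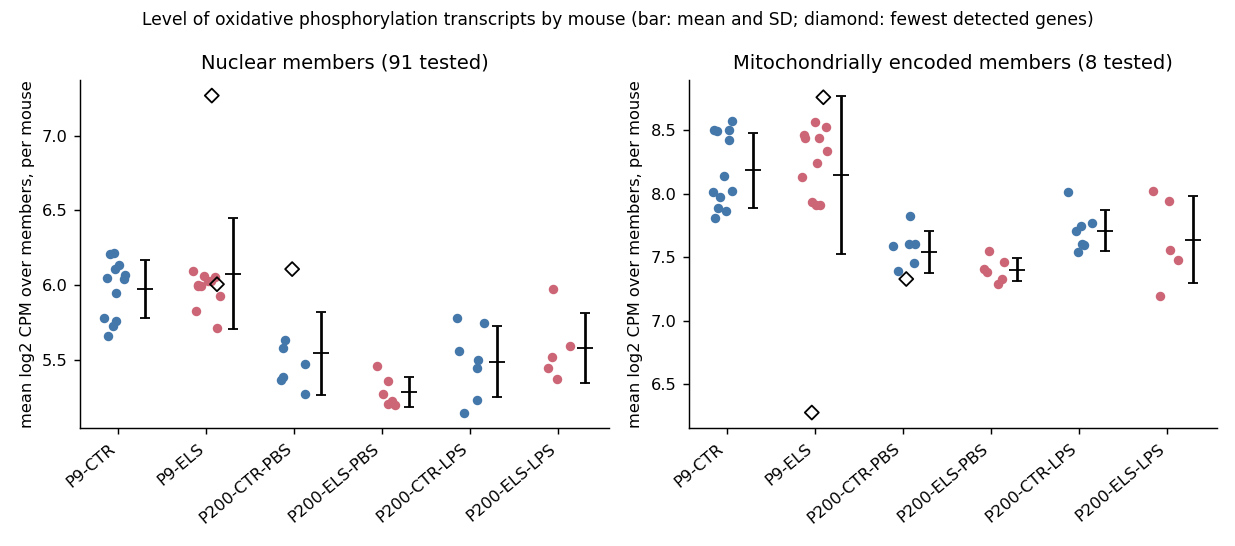
Mean log2 CPM over the 91 tested nuclear members (left) and the 8 tested mitochondrially encoded members (right), 1 point per mouse, by group (x), with the mean and SD as bars. Diamonds are the 3 mice with the fewest detected genes. The nuclear mean was 5.97 ± 0.20 in P9-CTR and 5.54 ± 0.28 in P200-CTR-PBS, and 1 of the diamonds lies at 7.27 among P9-ELS mice otherwise between 5.71 and 6.10.

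Complex V, the ATP synthase, had 14 of its 17 tested members lower with age in CTR (median -0.64) and 17 of 17 in ELS (median -1.17). Atp5b stood at 483 CPM in the lowest P9-CTR mouse, 603 at the median and 700 in the highest, against 312, 335 and 361 in P200-CTR-PBS. In P9-ELS it stood at 417, 627 and 795, against 268, 309 and 359 CPM in P200-ELS-PBS. In neither condition did the ages overlap, and the log2 fold changes were -0.87 ± 0.09 (SE; adjusted p = 3.28e-11, edgeR quasi-likelihood test) and -1.03 ± 0.10 (adjusted p = 9.92e-13). Atp5g3, one of the genes for the membrane ring subunit c (chr2:73738779-73741933), lay between 82.3 and 159 CPM in P9-CTR (median 117) and between 48.3 and 80.6 in P200-CTR-PBS (median 55.9). It likewise ranged from 105 to 162 in P9-ELS and from 38.8 to 55.08 in P200-ELS-PBS. These groups did not overlap either, with log2 fold changes of -0.98 ± 0.13 (adjusted p = 7.22e-09, edgeR) in CTR and -1.48 ± 0.14 (adjusted p = 6.17e-13) in ELS. Atp5d, the delta subunit of the central stalk, fell by 0.99 on the log2 scale in CTR (adjusted p = 8.20e-06, edgeR), from a median of 117 CPM to 57.2, without overlap. In ELS it fell by 1.06 (adjusted p = 6.37e-06), with overlap because 1 P9-ELS mouse stood at 26.1 CPM.

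Complex IV, cytochrome c oxidase, had 12 of its 15 tested members lower with age in CTR (median -0.71) and 14 in ELS (median -1.32). Cox4i1 ranged from 365 to 712 CPM in P9-CTR (median 500) and from 233 to 488 in P200-CTR-PBS (median 278), in which mouse 1.1 was the highest and made the ages overlap. Its log2 fold change was -0.77 ± 0.14 (adjusted p = 5.71e-06, edgeR quasi-likelihood test). In ELS the ranges were 477 to 738 CPM at P9 and 224 to 259 at P200, with no overlap and a log2 fold change of -1.24 ± 0.14 (adjusted p = 7.38e-10). Cox6a1 fell by 0.89 in CTR, from a median of 215 CPM to 104 (adjusted p = 4.58e-08, edgeR), and by 1.27 in ELS, from 207 to 90.0 (adjusted p = 2.07e-11). Cox5b, a zinc-binding subunit, ranged from 56.8 to 89.9 CPM in P9-CTR and from 28.4 to 41.3 in P200-CTR-PBS, with no overlap and a log2 fold change of -0.98 ± 0.17 (adjusted p = 8.57e-06, edgeR). Cox6c had the largest fall in ELS among called nuclear members with a mean log2 CPM of at least 1, by 1.56 ± 0.23, from a median of 86.3 CPM to 34.0 without overlap (adjusted p = 2.20e-07, edgeR). The accessory subunits Cox8a and Ndufa4, the latter now counted with complex IV, fell by 0.60 and 0.67 in CTR and by 0.98 and 1.33 in ELS. Cox7a2l, also counted with complex IV, fell by 0.38 in CTR and by 0.80 in ELS.

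The tissue-restricted isoforms of complex IV were near the limit of detection or not tested. Cox6a2, the heart and muscle isoform of subunit 6A, had medians of 1.36 CPM in P9-CTR and 1.497 in P200-CTR-PBS and overlapped between the ages (log2 fold change 0.61 ± 0.37, adjusted p = 0.175, edgeR quasi-likelihood test). It was the single complex IV member not called lower in ELS. The muscle isoform Cox7a1 and Ndufa4l2, a hypoxia-induced relative of Ndufa4, did not pass the filter. Neither did Cox6c2, Cox7b2, Cox8b, Cox8c, Ndufa11b, Ndufb11b, Ndufb4c, Ndufs6b or the second of 2 identifiers listed as Atp5o. The ATP synthase inhibitor Atp5if1 is listed in the tables under another symbol and is not a member. Cox6b2, the testis isoform of subunit 6B, had medians of 0.60 CPM in P9-ELS and 0.08 in P200-ELS-PBS and was called lower there (adjusted p = 0.00381, edgeR), although the mice overlapped.

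Cox4i2 (chr2:152595625-152606959), the isoform of subunit 4 known from lung and from oxygen sensing, was counted in some groups and listed at 0 in others. It had 330 counts summed over P9-CTR and 389 over P9-ELS, with counts in 12 of 12 and 13 of 13 mice. In adults it had 23 counts in 3 of 7 P200-CTR-PBS mice, 0 in 6 P200-ELS-PBS mice, 71 in 6 of 7 P200-CTR-LPS mice and 50 in 5 of 5 P200-ELS-LPS mice. The 5 P200-ELS-LPS mice stood at 1.03, 0.99, 0.37, 0.60 and 0.14 CPM. Taking 3 counts over the whole P200-ELS-PBS group as the limit that a count of 0 allows, its level there was at least 67.4-fold lower than in P9-ELS and at least 7.43-fold lower than in P200-CTR-PBS, and it was at least 26.8-fold higher in P200-ELS-LPS. Such limits cover counting error only. Before scaling, no adult mouse reached 1 CPM of Cox4i2, so it passed the filter on low counts only through the P9 mice. Its call with age is therefore not independent of that filter. The edgeR quasi-likelihood test called all 3 of these differences, the one between ELS and CTR with an adjusted p of 0.0466. That call was lost in 17 of 24 alternative fits, P200-CTR-PBS included 4 mice without a count, and the groups overlapped at 0. A list of 7 pericyte markers was chosen after these values were seen, because pericytes are known to express Cox4i2. Summed over that list, the median was 8.51 CPM in P9-CTR and 2.75 in P9-ELS. In adults it was 0.64 in P200-CTR-PBS, 0.16 in P200-ELS-PBS, 0.07 in P200-CTR-LPS and 0 in P200-ELS-LPS. Of 6 astrocyte markers, 5 were lower and 1 higher with age in both conditions. Gfap, the intermediate filament of astrocytes, was lower in ELS than in CTR with PBS (adjusted p = 0.0466, edgeR quasi-likelihood test), with 15 counts in 2 of 6 P200-ELS-PBS mice and 206 in 5 of 7 P200-CTR-PBS mice. After LPS in ELS, Gfap (129 counts in 4 of 5 mice, adjusted p = 7.87e-04, edgeR) and the gap junction gene Gja1 (147 counts in 5 of 5 mice against 12 in 2 of 6, adjusted p = 9.57e-04) were higher. These 2 astrocyte genes thus moved in the same directions as Cox4i2 in ELS mice, with age and after LPS, but the list as a whole did not. After LPS in ELS, 4 of the 6 markers had a positive and 2 a negative log2 fold change. Slc1a2 went from a median of 0.99 CPM in P200-ELS-PBS to 0.36 in P200-ELS-LPS. Summed over the list, the astrocyte markers had medians of 292 CPM in P9-CTR (range 167 to 390), 246 in P9-ELS (116 to 341), 335 in P200-CTR-PBS (301 to 503), 396 in P200-ELS-PBS (316 to 456), 576 in P200-CTR-LPS (485 to 618) and 533 in P200-ELS-LPS (423 to 586). In adults nearly all of that sum was Slc1a3, a glutamate transporter gene, with a median of 323 CPM in P200-CTR-PBS. The part of pericytes and astrocytes in the Cox4i2 values was not tested.

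Complex III had 6 of 9 members lower with age in CTR (median -0.51) and 9 of 9 in ELS (median -0.93). Cyc1, the cytochrome c1 subunit, ranged from 93.0 to 126 CPM in P9-CTR and from 73.3 to 88.5 in P200-CTR-PBS, without overlap, with a log2 fold change of -0.48 ± 0.11 (adjusted p = 5.60e-04, edgeR quasi-likelihood test). Uqcrc1 fell by 0.56 in CTR (medians 434 and 297 CPM, adjusted p = 3.95e-05) and by 0.65 in ELS (467 and 314 CPM). The small subunits Uqcr10 and Uqcrq fell by 0.88 and 0.54 in CTR and by 1.52 and 1.03 in ELS. The call for Uqcrq in CTR was near the threshold (adjusted p = 0.0434, edgeR) and was lost in 8 of its alternative fits.

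Complex II, which is also the succinate dehydrogenase of the citric acid cycle and has no mitochondrially encoded subunit, had 2 of 4 members lower with age in CTR and 4 of 4 in ELS. The membrane anchors carried the calls in CTR: Sdhc fell by 0.52 (medians 114 and 81.8 CPM, adjusted p = 9.94e-04, edgeR quasi-likelihood test) and Sdhd by 0.35 (170 and 125 CPM, adjusted p = 0.0251), a call lost in 4 of 18 alternative fits. The flavoprotein Sdha stood at 320 and 279 CPM (log2 fold change -0.21 ± 0.09, adjusted p = 0.0537) and the iron-sulphur subunit Sdhb at 196 and 176 (-0.23 ± 0.21, adjusted p = 0.406). In ELS, Sdha fell by 0.27 (adjusted p = 0.0198, edgeR), Sdhc by 0.82, Sdhd by 0.88 and Sdhb by 0.66. The call of Sdha was lost in 4 of 17 alternative fits. A single P9-ELS mouse stood at 947 CPM of Sdhb among a median of 204, and without the 3 libraries with the fewest detected genes the change in ELS was -0.30. Cytochrome c itself, Cycs, stood at medians of 43.4 and 36.3 CPM in CTR (log2 fold change -0.17 ± 0.22, adjusted p = 0.555) and fell by 0.87 ± 0.24 in ELS (adjusted p = 0.00278). Without those 3 libraries the change in ELS was -0.56.

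Complex I, the entry point for electrons from NADH, was lower for a smaller share of its subunits than complexes III to V in CTR, a difference that was not tested. Of its 7 nuclear core subunits 3 were lower in CTR (median -0.16) and 5 in ELS (median -0.43). Of 30 supernumerary subunits 9 were lower in CTR (median -0.30) and 26 in ELS (median -0.91). Ndufs1, the large iron-sulphur subunit, ranged from 75.7 to 110 CPM in P9-CTR and from 58.8 to 95.8 in P200-CTR-PBS, with overlap and a log2 fold change of -0.32 ± 0.10 (adjusted p = 0.00648, edgeR quasi-likelihood test). Ndufv1, which binds NADH, fell by 0.51 ± 0.14 from a median of 74.7 to 51.0 CPM (adjusted p = 0.00183). Ndufab1, the mitochondrial acyl carrier protein, stood at 79.3 and 65.2 CPM in CTR (adjusted p = 0.289) and fell by 0.53 in ELS (adjusted p = 0.00833).

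The assembly factors of complex I were the members that rose. In CTR 4 of 8 were higher at P200 and none was lower (median 0.32), the reverse of the direction in the finished complex. Ndufaf7, a methyltransferase needed for complex I assembly (chr17:79244538-79256938), ranged from 39.1 to 47.9 CPM in P9-CTR and from 61.7 to 137 in P200-CTR-PBS. The ages did not overlap, and the log2 fold change was 0.94 ± 0.17 (adjusted p = 8.04e-06, edgeR quasi-likelihood test). In ELS it ranged from 33.6 to 110 CPM at P9 and from 58.7 to 92.1 at P200, with 1 P9 mouse above all adults and a log2 fold change of 0.67 ± 0.17 (adjusted p = 0.00157). Ndufaf1, which acts on early membrane intermediates, rose by 0.74 ± 0.28 in CTR (medians 15.9 and 25.1 CPM, no overlap, adjusted p = 0.0304, edgeR). Ndufaf4 and Ndufaf3, which are known to work as a pair, rose by 0.53 and 0.43 (adjusted p = 0.0205 and 0.0366, edgeR), with overlapping groups. In ELS the other assembly factor called was Ndufaf2, which fell by 0.89 ± 0.29 (medians 7.70 and 4.54 CPM, adjusted p = 0.0108, edgeR). Without the 3 libraries with the fewest detected genes, Ndufaf1, Ndufaf3 and Ndufaf7 were higher in ELS as well, and Ndufaf2 was lower in both conditions.

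**Figure D3:**
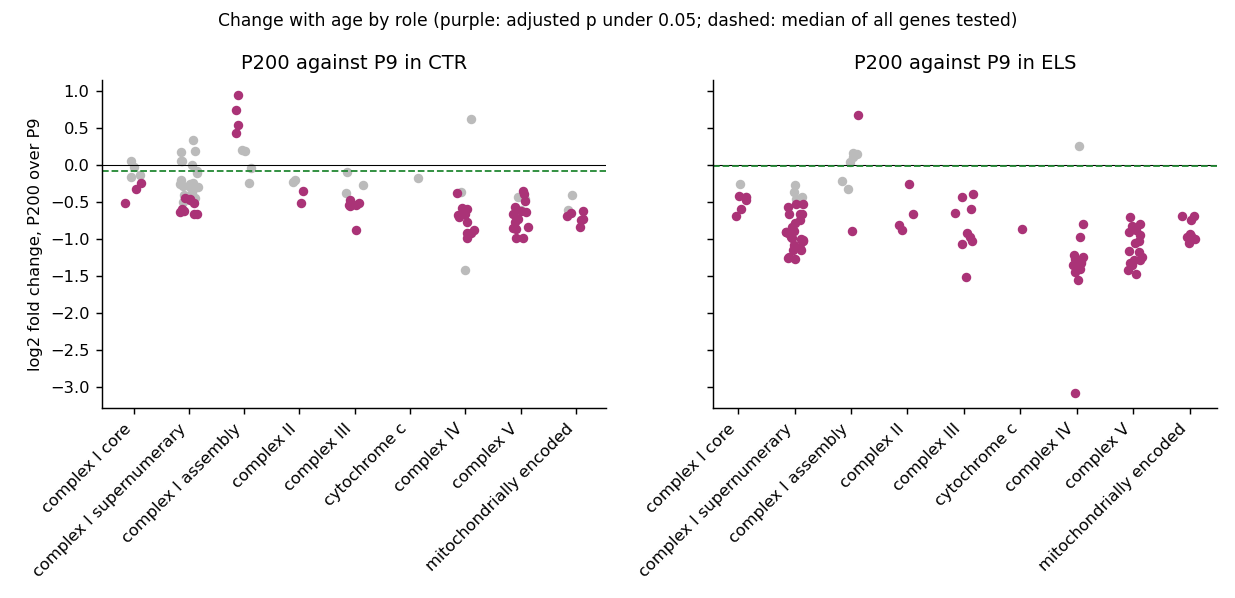
Log2 fold change of P200 over P9 (y) for each tested member by role (x), in CTR (left) and ELS (right), with called members in purple and the median of all genes tested as a dashed line. Cox4i2 is left out because it had no count in P200-ELS-PBS. Complex I assembly factors lie at a median of 0.32 in CTR, and complexes IV and V at -0.71 and -0.64.

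Mitochondrially encoded members followed the nuclear ones with age: 6 of 8 were lower in CTR (median -0.67) and 8 of 8 in ELS (median -0.95). mt-Nd1 stood at 832 CPM in the lowest P9-CTR mouse, 1172 at the median and 1848 in the highest, against 571, 683 and 773 in P200-CTR-PBS. The ages did not overlap, and the log2 fold change was -0.84 ± 0.17 (adjusted p = 4.63e-05, edgeR quasi-likelihood test). In ELS it was -0.96 ± 0.17 (adjusted p = 1.29e-05), with 1 P9-ELS mouse at 462 CPM below the adults. mt-Co1 fell by 0.75 in CTR and 0.94 in ELS, mt-Cytb by 0.65 and 0.69, mt-Nd4 by 0.62 and 0.74, mt-Nd5 by 0.73 and 1.05, and mt-Nd6 by 0.69 and 0.97. mt-Nd2 was at medians of 235 and 178 CPM in CTR (log2 fold change -0.41, adjusted p = 0.0806) and fell by 0.70 in ELS (adjusted p = 0.00507). mt-Nd3, counted only where reads reach a difference from the copy, was at 2.38 and 1.53 CPM in CTR (adjusted p = 0.166) and fell by 1.00 in ELS (adjusted p = 0.0309), a call lost in 6 of 17 alternative fits.

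At P9 the mitochondrially encoded level was also set out by nest. In P9-CTR the mean log2 CPM over the 8 members was 7.81 to 8.14 in all mice of nests 15, 17 and 58, and 8.42 to 8.57 in all mice of nests 51 and 52. In P9-ELS it was 7.91 to 8.13 in nest 9 and 8.24 to 8.56 in nests 53 and 55, and nest 19 held mice at 6.28, 7.91 and 8.76, of which the first and last are libraries with few detected genes. The P9-CTR nests were put into these sets by their values, so the gap between the sets is no separate result. Whether nests differed was not tested. Nest was not a term in the test, and whether nest here stands for dam, day or processing is not given in the sources used here.

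At P9, ELS and CTR mice were compared right after the stress. None of the 91 nuclear and none of the 8 mitochondrially encoded members was called by the edgeR quasi-likelihood test or by DESeq2, as was 0% of all genes tested. At an unadjusted p under 0.05 there were 13 nuclear and 0 mitochondrially encoded members among 914 genes. The median log2 fold change of the nuclear members was 0.19, with 86 of 91 positive, and it was 0.003 without P9-ELS mice 2 and 3 of nest 19. The smallest p-values belonged to Cycs (0.56 ± 0.19, adjusted p = 0.858, edgeR), Ndufa12 (0.68 ± 0.24, adjusted p = 0.873) and Cox7a2l (0.29 ± 0.10, adjusted p = 0.875). Ndufa12, an accessory subunit of complex I, stood at 75.9 CPM at the P9-ELS median and at 570 in the highest mouse, and its change was 0.09 without the 3 libraries with the fewest detected genes.

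In PBS-injected adults, 1 nuclear member, Cox4i2 as described above, was lower in ELS than in CTR and none was higher, where 0.168% of all genes tested were called in either direction. No mitochondrially encoded member was called by edgeR or DESeq2, and 21 nuclear and 0 mitochondrially encoded members among 1622 genes had an unadjusted p under 0.05. The median of the nuclear members was -0.30, with 83 of 91 negative, and -0.17 without P200-CTR-PBS mouse 1.1. Cox7a2, a small complex IV subunit, ranged from 33.1 to 80.2 CPM in P200-CTR-PBS and from 24.8 to 30.4 in P200-ELS-PBS. These groups did not overlap, but the log2 fold change of -0.62 ± 0.22 did not pass (adjusted p = 0.239, edgeR quasi-likelihood test). It was -0.41 without the 3 libraries with the fewest detected genes, and it passed (adjusted p = 0.0450) when only P9-ELS mice 2 and 3 of nest 19 were left out. Ndufb3, an accessory complex I subunit, was at medians of 26.0 and 20.4 CPM (-0.61 ± 0.24, adjusted p = 0.317).

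In LPS-injected adults, no member differed between ELS and CTR by the edgeR quasi-likelihood test or DESeq2, as did 0% of all genes by edgeR, while DESeq2 called 1 gene higher and 1 lower. There, 1 nuclear and 0 mitochondrially encoded members among 798 genes had an unadjusted p under 0.05, and the nuclear median was 0.09. It was -0.03 without P200-ELS-LPS mouse 2 of nest 11. Cyc1 had the smallest p (0.35 ± 0.14, adjusted p = 0.862), with medians of 78.2 CPM in P200-CTR-LPS and 95.3 in P200-ELS-LPS, in groups that overlapped. Uqcrfs1, the Rieske iron-sulphur protein of complex III, and Cox7a2l followed at 0.32 and 0.28.

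In CTR mice, a single nuclear member was lower 3 h after LPS and none was higher, where 6.20% of all genes tested were lower and 8.73% higher, and the nuclear median was -0.08. It was 0.05 without P200-CTR-PBS mouse 1.1. The member called was Ndufaf7, at 33.0 CPM in the lowest P200-CTR-LPS mouse, 49.4 at the median and 64.0 in the highest, against 61.7, 75.2 and 137 in P200-CTR-PBS. Only the ends of the ranges overlapped, and the log2 fold change was -0.70 ± 0.19 (adjusted p = 0.00786, edgeR quasi-likelihood test). In ELS it was -0.36 ± 0.22 (adjusted p = 0.328), and the difference between the conditions was not called (adjusted p = 0.964). By adjusted p, none of 26 alternative fits lost the call of Ndufaf7 in CTR.

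In ELS mice, 4 nuclear members were higher after LPS and none was lower, beside 7.40% and 4.94% of all genes tested. All 4 belong to complex IV: Cox8a, Cox4i1, Cox7a2l and Cox4i2. The median of the 91 nuclear members was 0.30, with 84 positive, and that of all genes was -0.04. It was 0.16 without P200-ELS-LPS mouse 2 of nest 11, and single mice left out gave 0.16 to 0.36. There were 16 nuclear members among 4079 of the 16696 genes at an unadjusted p under 0.05. Cox8a (chr19:7192515-7194997), a small accessory subunit, stood at 80.9, 82.8, 92.6, 79.6 and 90.9 CPM in the 5 P200-ELS-LPS mice and between 52.5 and 65.0 in P200-ELS-PBS. Every LPS mouse was above every PBS mouse, and the log2 fold change was 0.54 ± 0.14 (adjusted p = 0.00741, edgeR quasi-likelihood test). By adjusted p, this call was kept in all 23 alternative fits. Cox4i1 stood at 307, 315, 481, 289 and 294 CPM against 224 to 259, again without overlap, with a log2 fold change of 0.48 ± 0.17 (adjusted p = 0.0472, edgeR). Cox7a2l stood at 148, 169, 253, 155 and 197 CPM against 103 to 152, with overlap (0.46 ± 0.16, adjusted p = 0.0443, edgeR). The calls of Cox4i1 and Cox7a2l were lost in 10 and 9 of 23 alternative fits, both of them when P200-ELS-LPS mouse 2 of nest 11, the highest in each, was left out.

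Several other members in ELS lay just outside the threshold after LPS: Sdhc (adjusted p = 0.0502, edgeR quasi-likelihood test), Cyc1 (0.0549), Atp5g3 (0.0566) and Atp5b (0.0647). Without the 3 libraries with the fewest detected genes, none of which is in either ELS adult group, 17 nuclear members were called and all were higher, while the calls over all genes went from 1235 higher and 824 lower to 1922 and 1610. They enter this comparison only through the estimate of spread shared by the 6 groups. The 17 were 9 complex IV members, Ndufb1, Ndufs4, Sdhc, Cyc1, Uqcrh, Atp5b, Atp5d and Atp5g3. No mitochondrially encoded member was called after LPS by the main edgeR fit or DESeq2, while an edgeR fit with the nest as a block called mt-Nd1 in both conditions. In the main fit the medians were 0.20 in CTR and 0.24 in ELS, with 8 of 8 positive in both, and 0 and 1 at an unadjusted p under 0.05.

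**Figure D4:**
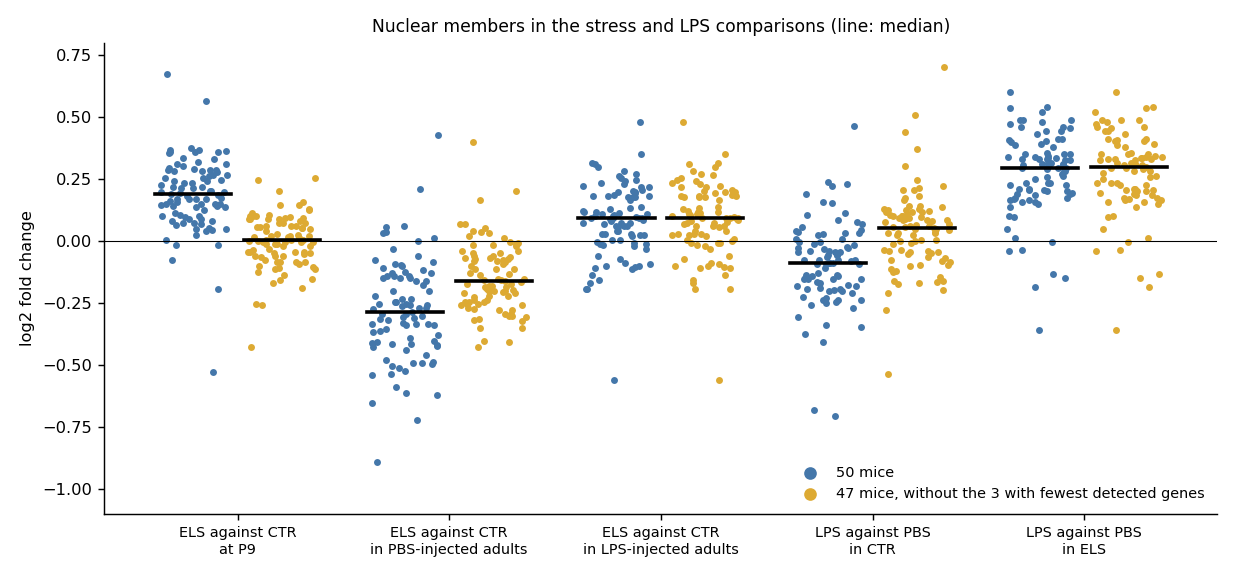
Log2 fold changes (y) of nuclear members in the 3 comparisons of ELS with CTR and the 2 of LPS with PBS (x), from all 50 mice (blue) and without the 3 mice with the fewest detected genes (yellow), with medians as lines. Cox4i2 and Cox6b2 are left out because of their near-zero counts. Medians moved from 0.19 to 0.003 at P9 and from -0.08 to 0.05 for LPS in CTR, and stayed near 0.30 for LPS in ELS without those 3 mice.

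**Figure D5:**
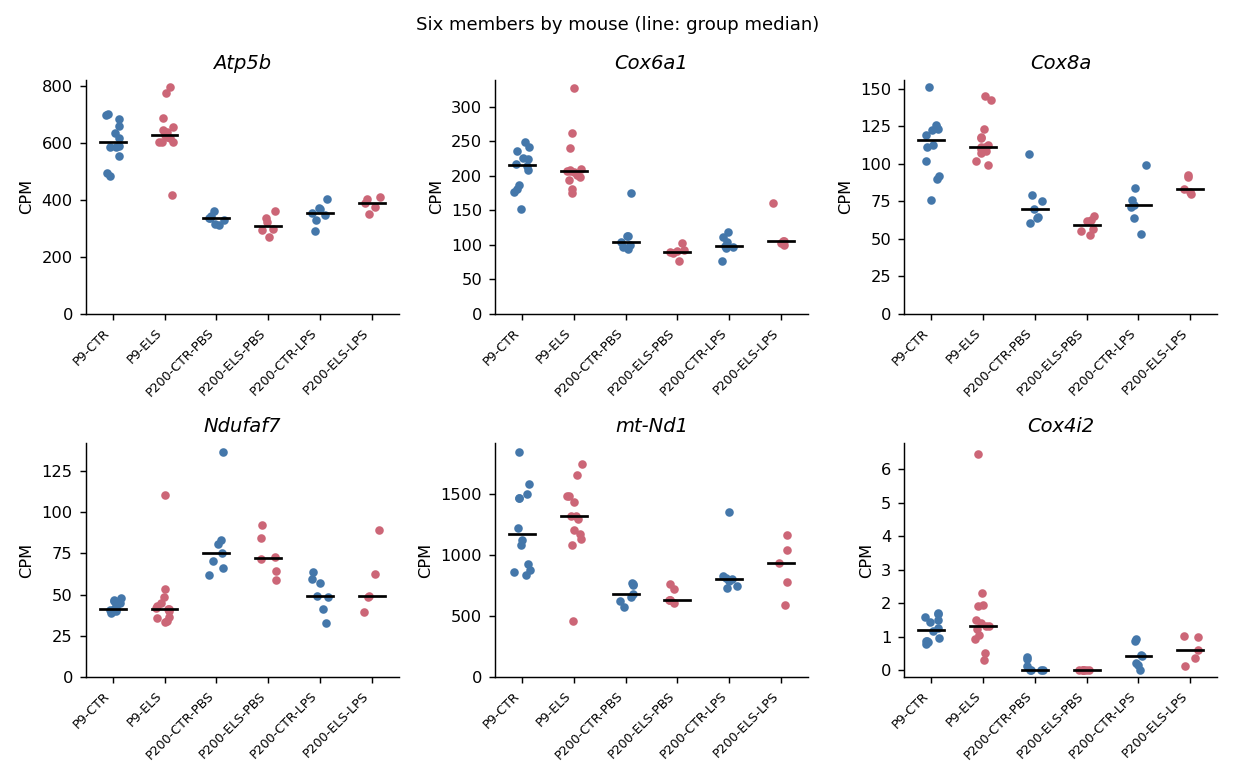
Level in CPM (y) of 6 members in every mouse by group (x), with group medians as lines. Atp5b and mt-Nd1 are lower in PBS-injected adults than at P9, Ndufaf7 is higher, and the 5 Cox8a values of P200-ELS-LPS lie above all those of P200-ELS-PBS.

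The interactions tested whether the age or LPS response differed between ELS and CTR. Neither called a member with the edgeR quasi-likelihood test, beside 0.0299% of all genes tested for age and 0% for LPS. The DESeq2 test called 1 nuclear member for age, among 12 genes higher and 8 lower, and none for LPS, among 6 higher and 5 lower. For age, 42 nuclear and 0 mitochondrially encoded members among 1712 genes had an unadjusted p under 0.05, 88 of 91 nuclear members were more negative in ELS, and the median difference was -0.51. Without the 3 libraries with the fewest detected genes it was -0.17. For LPS, 9 nuclear and 0 mitochondrially encoded members among 980 genes had an unadjusted p under 0.05, 89 of 91 were more positive in ELS, and the median difference was 0.36, or 0.24 without those libraries. Cox4i2 had the smallest p in both (adjusted p = 0.137 and 0.209, edgeR). After it came Cox7a2 (-0.84 ± 0.27) and Ndufb3 (-0.90 ± 0.29) for age, and Cox8a (0.54 ± 0.19) and Cox6a1 (0.53 ± 0.20) for LPS.

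Genes around the respiratory chain were counted from lists. Of 14 citric acid cycle genes, 9 were lower with age in CTR and 12 in ELS, among them Idh2 (-1.24) in CTR, and none was called after LPS by edgeR. Of 7 genes for carriers, Vdac channels and uncoupling, 5 were lower with age in CTR and 6 in ELS. After LPS 1 was higher in CTR, the uncoupling protein Ucp2 (0.77), and 2 in ELS, Ucp2 (0.92) and the phosphate carrier Slc25a3 (0.56). Assembly factors outside the members went both ways with age, with 5 of 40 higher and 6 lower in CTR, among the latter Ttc19 (-0.97) and Sdhaf1 (-0.96). Among 10 tested regulators of mitochondrial biogenesis, 1 was higher with LPS in CTR, the coactivator Pprc1 (1.79). With age, Gabpb1, a subunit of the factor GABP, was higher in CTR (0.32, adjusted p = 0.0471, edgeR). The coactivator Ppargc1a was lower in both conditions (adjusted p = 3.74e-05 in CTR and 1.99e-04 in ELS, edgeR), with 397 and 410 counts summed over the P9 groups and 1 and 2 over the PBS-injected adults. No adult mouse reached 1 CPM of Ppargc1a, so it too passed the filter only through the P9 mice. Of 19 genes of mitochondrial DNA upkeep and expression, 5 were higher and 3 lower with age in CTR, among them Tefm (0.98) and Polg (-1.35), and the helicase Twnk fell after LPS by 1.04 in CTR and 0.58 in ELS. Of 12 other mitochondrial transcripts 3 were lower with age in CTR, including the ribosomal RNAs mt-Rnr1 (-1.07) and mt-Rnr2 (-0.70).

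Cytosolic ribosomal protein genes, a list chosen after values were seen, were counted beside the nuclear members. Of 84 tested, 73 were lower and 1 higher with age in CTR (median -0.86), and 78 were lower in ELS (median -1.40). After LPS 2 were higher in CTR (median 0.12) and 52 in ELS (median 0.60), and none was lower. The medians of both sets thus had the same sign with age and after LPS in ELS, and opposite signs after LPS in CTR, where that of the nuclear members was -0.08. That last sign depended on P200-CTR-PBS mouse 1.1, without which the nuclear median was 0.05. The lower levels with age and the higher levels after LPS in ELS were thus not particular to oxidative phosphorylation genes.

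Promoters of the nuclear members were searched for the cores of 3 factors known to bind upstream of respiratory chain genes, since many members moved together with age. Windows of 250 bases before to 50 after the start came from RefSeq on GRCm38.p6, an earlier build than that of the count tables, and 78 of the 101 nuclear symbols had one. The NRF1 core GCGCATGCG, on either strand, stood in 11 of the 78 members (14.1%) and in 1.95% of the promoters of 27025 genes. The YY1 core AAGATGGCG stood in 8 (10.3%, against 1.64%) and the GABPA core CCGGAAGT in 5 (6.4%, against 4.31%). Of the 11 holders of the NRF1 core, 5 were lower and 1 higher with age in CTR and 8 were lower in ELS. Of the 8 holders of the YY1 core 3 and 6 were lower, and of the 5 holders of the GABPA core 3 and 5. Over all 91 nuclear members tested, 50.5% were lower in CTR and 84.6% in ELS. Whether a core goes with the fall was not tested. Of the members, 1 held more than one of them, and the NRF1 core overlaps its own reverse complement. A match describes letters and is not a binding site. The stretches below hold the NRF1 core in capitals, for the complex IV subunit Cox6a1 (chr5:115349087-115349145, minus strand), cytochrome c (chr6:50566597-50566655, minus strand), the subunit c gene Atp5g2 (chr15:102671056-102671114, minus strand) and the assembly factor Ndufaf4 (chr4:24897945-24898003, plus strand). They are shown because the first 3 were lower with age in ELS while Ndufaf4 was higher in CTR, a contrast across conditions. Cycs was not called with age in CTR, and Ndufaf4 was not called with age in ELS.
Cox6a1: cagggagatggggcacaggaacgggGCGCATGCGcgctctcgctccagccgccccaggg
Cycs: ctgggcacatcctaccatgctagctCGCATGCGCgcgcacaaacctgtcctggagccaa
Atp5g2: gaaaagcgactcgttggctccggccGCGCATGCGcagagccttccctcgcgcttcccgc
Ndufaf4: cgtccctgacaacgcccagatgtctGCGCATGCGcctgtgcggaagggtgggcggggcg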

How the data were processed

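The deposited files hold raw read counts per gene and mouse, 1 table for each library. Per the labels and the study's methods, the authors trimmed reads with cutadapt 2.10, mapped them with STAR to GRCm39, and counted reads with a single map position in exons with HTSeq 0.11.0. From these counts, genes that reached 1 CPM in at least 3 of 50 mice were kept, scaled by TMM and fitted with 6 group means in edgeR 4.0.16 (quasi-likelihood test, Benjamini-Hochberg adjustment over 16696 genes, called under an adjusted p of 0.05). Log2 CPM used a prior count of 2, and SE is the log2 fold change divided by the root of F. Total counts gave the depth of each library. The steps were checked on simulated data.

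Alternatives were other scalings, filters, samples in the fit and tests (likelihood ratio, DESeq2 1.42.0, limma 3.58.1), a log2 threshold of 1, a nest block, and each P200 mouse left out. Named members were a set list, the 3 largest called changes each way per comparison (mean log2 CPM of at least 1) or, where none was called, the 3 smallest p-values, and every mitochondrially encoded member. Members and lists were chosen with earlier results of these data known. Copies of the mitochondrial genome were found with minimap2 2.31. The design text gives 12 P9-ELS mice, and the 13 libraries labelled so were used.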

Additional observations from a re-analysis of the deposited data

Results flagged for a closer look

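In groups of 4 to 10 mice, 172 values of members and of their means were examined for a mouse far from the others, and 22 stood apart by Dixon's 95% criterion, which chance alone meets in about 1 of 20 groups. P200-CTR-PBS mouse 1.1, one of the 3 with few detected genes, gave 11 of them. Its nuclear members had a mean log2 CPM of 6.11 and a share of 0.929% of the counts. Its log2 CPM was 6.36 for Atp5d, 8.93 for Cox4i1, 7.45 for Cox6a1, 2.67 for Cox6a2, 6.51 for Cox6c, 6.33 for Cox7a2, 7.03 for Ndufa4, 7.10 for Ndufaf7 and 7.61 for Sdhd, in each the highest of its group. P200-ELS-LPS mouse 2 of nest 11 was highest in 6: 8.91 for Cox4i1, 7.33 for Cox6a1, 7.40 for Cyc1, 7.23 for Sdhc, 8.99 for Uqcrc1 and 7.53 for Uqcrfs1. The other values were mt-Nd6 at 6.85 in P200-CTR-PBS mouse 1 of nest 15 and at 6.32 in P200-ELS-PBS mouse 1 of nest 11, Sdhd at 7.01 in P200-ELS-PBS mouse 1 of nest 17, mt-Nd1 at 10.40 in P200-CTR-LPS mouse 5.3, and Cox6c at 4.84, the lowest of its group, in P200-ELS-LPS mouse 2.2. The cause was not tested.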

How the results depend on the processing

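No call of a member was reversed under any alternative. Over the named members, 1387 alternative values kept their direction and side of the threshold, 62 lost the call and 4 gained one. The single nuclear call between ELS and CTR in PBS-injected adults became 0 with DESeq2 size factors, with mitochondrially encoded genes left out of the scaling, without a filter, with filterByExpr, with only the compared groups fitted and with limma-voom. It became 2 without P9-ELS mice 2 and 3 of nest 19 (this exclusion and that of the 3 mice with fewest detected genes were chosen after seeing the data), and leaving out single mice gave 0 to 1. With age in CTR, the 50 nuclear calls became 1 and the 6 mitochondrially encoded calls 0 when a log2 change over 1 was also required, and single mice left out gave 39 to 60 (60 without P200-CTR-PBS mouse 1.1). In ELS the 78 became 36 and the 8 became 2 by that rule. For LPS in CTR the 1 nuclear call became 2 with the likelihood-ratio test, with limma-voom and without the 3 mice, and 0 with a log2 change over 1. Single mice left out gave 1 to 2. For LPS in ELS the 4 nuclear calls became 8 with DESeq2 size factors, filterByExpr or DESeq2, 7 without mitochondrially encoded genes in the scaling or with only the compared groups, 2 without a filter, 17 without the 3 mice, 14 without P9-ELS mice 2 and 3 of nest 19, and 1 with a log2 change over 1. Single mice left out gave 2 to 6 (2 without P200-ELS-PBS mouse 4.1 or mouse 1 of nest 11). The likelihood-ratio test called 1 nuclear member in each interaction, and DESeq2 called 1 for age. The cause was not tested.

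PBS and LPS mice that share a nest number were not paired in the main fit. Deviations of nestmates from their group means correlated at -0.041 to 0.084 over 10 nests, none above 0.1. With 1 or 2 mice per side in each nest, these values cannot settle whether nestmates are paired. With the nest as a replicate block, mt-Nd1 was called after LPS in CTR and in ELS (1 mitochondrially encoded call each), the nuclear calls were 1 in CTR and 6 in ELS, and the ELS by LPS interaction had 0.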
